A study of Homo sapiens with 2 samples.

Results

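Type IV collagens, laminins and nidogen build the basement membrane, the thin sheet of matrix on which epithelial cells sit. The values below describe 10 such genes, COL4A1, COL4A2, COL4A5, COL4A6, LAMA4, LAMA5, LAMB1, LAMB2, LAMC1 and NID1, in an established human cervical carcinoma line. They were taken by name, with all 23 probe sets that the array's annotation pairs with exactly 1 of these symbols, out of 41091 probe sets with 1 gene and 19775 named genes. The 10 genes were chosen with earlier results of these data known. One stable derivative of C33-A carried full-length human CA9 cDNA in pcDNA3.0, a plasmid in which a viral promoter drives the insert, and gave what are called CA9 cells here. CA9 encodes carbonic anhydrase IX, an enzyme of the cell surface that hydrates carbon dioxide. The other derivative carried empty vector and gave the vector cells. Both were grown in RPMI medium with serum and hybridised on 1 Affymetrix array each. The labels leave unsaid if either derivative was cloned or pooled. With 1 derived line and 1 array for each construct, the effect of CA9 and a difference between the derived lines cannot be told apart.

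Collagen IV chains coil into triple helices that join at their ends into a network. Laminins are cross-shaped trimers of an alpha, a beta and a gamma chain that form a second network, and nidogen binds to both. Cells attach to these sheets through integrins and other receptors, and tumour cells that invade have to cross them.

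The intensities are the authors' RMA values on a linear scale, and each difference was taken as log2 of CA9 cells minus log2 of vector cells. The floor, 40.8, is the median intensity over both arrays without control probe sets. Genes whose brightest probe set exceeded it on at least 1 array are called measurable. A gene was called at a difference of 2-fold or more. Neither line has a replicate array, so no difference can be tested and every value describes these 2 arrays. The only measure of error is how far probe sets of one gene disagree: their log2 differences scattered about the gene's mean with an SD of 0.31, pooled over 6186 genes. Such probe sets read the same RNA on the same array and are not replicates. In the RNA of a whole culture, fewer cells with a transcript and less of it per cell cannot be told apart.

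Across 13823 measurable genes, which are not independent of each other, Pearson's r of log2 intensities was 0.974. Control probe sets differed between the arrays. Of 18 hybridisation spike-in probe sets 17 had a log2 difference above 0, with a median of 0.41. Of 27 poly-A ones 6 did, with a median of -0.17. The median was -1.69 over 3 probe sets for 18S ribosomal RNA and -0.92 over 3 for 28S. The log2 signal at the 3' end minus that at the 5' end of ACTB was 0.67 for CA9 cells, against 0.73 for vector cells. Of 5 epithelial markers, KRT8 and KRT18 lay above the floor on both arrays and KRT19 only on the CA9 array, whereas EPCAM and CDH1 lay below it on both. The summed intensity of the 5 was 271 in CA9 cells, against 197 in vector cells. Of 5 endothelial markers 3 were above the floor in each line, with sums of 229 in CA9 cells, against 208 in vector cells, and CDH5 and KDR lay below it in both. Of 7 fibroblast markers 6 were above it in CA9 cells and 5 in vector cells, with sums of 3106 in CA9 cells and 2838 in vector cells, and LUM lay below it in both. Most of these sums came from COL3A1, with 2538 in CA9 cells and 2339 in vector cells. Of 3 blood cell markers a different one was above it in each line, with sums of 114 in CA9 cells, against 130 in vector cells. CD14 had 57.1 in CA9 cells, against 36.9 in vector cells, and PTPRC had 30.1 in CA9 cells, against 58.1 in vector cells. The part of these shifts in the results was not tested. Transgene expression was not analysed here and so gives no check of the labels.

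In CA9 cells COL4A1, COL4A2 and COL4A5, the shared laminin gamma chain gene LAMC1 and NID1 had lower intensities in their brightest probe sets than in vector cells, whereas LAMA4 and LAMB2 had higher ones. COL4A4, a collagen IV gene outside the 10, was higher in its brightest probe set, with 59.8 in CA9 cells, against 47.7 in vector cells, a difference of 0.33. No other of its 3 probe sets lay above the floor, and the mean over all 3 was -0.01. COL4A4 was chosen after its values were seen. Of the 10 genes 8 were measurable. Of these 8, 6 lay below 0 and 2 above it, with differences from -1.02 to 0.64 and a median of -0.42. Over all measurable genes the median was -0.03, and 53.0% lay below 0. COL4A1 was the only member called, as lower, beside 0.694% of measurable genes called lower, 0.651% called higher and 1.35% called in either direction. When the medians of the arrays were set equal, the share of higher genes among all calls was 35.9% in place of 48.4%. A difference larger than the SD between probe sets, 0.31, was seen in 7 of the 8 measurable members, 5 lower and 2 higher. The same held for 35.4% of all measurable genes. LAMA4 entered this count, the 2 above 0 and the median only through the CA9 array, where it is high. The count also rests on the brightest probe sets. With probe sets averaged, LAMC1 at -0.24 and NID1 at -0.16 lay within the SD. COL4A6 and LAMB1 lay below the floor on both arrays and have no fold here.

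**Figure D1:**
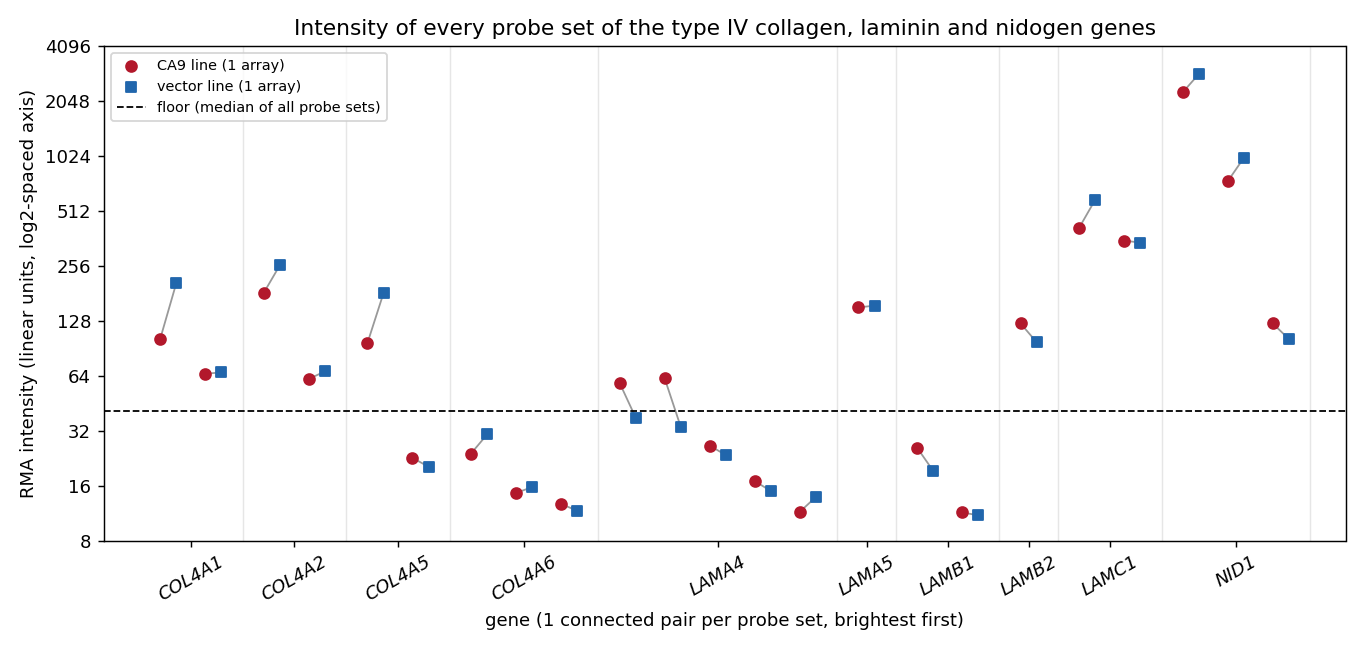
RMA intensity (log2-spaced axis) of each of the 23 probe sets of the 10 genes, with CA9 cells as a circle on the left and vector cells as a square on the right of each connected pair, 1 array each; the dashed line is the floor of 40.8. The brightest pairs of COL4A1, COL4A2, COL4A5, LAMC1 and NID1 slope up towards vector cells, and all probe sets of COL4A6 and LAMB1 lie under the floor.

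COL4A1 and COL4A2 encode the chains of the most widespread type IV collagen and lie head to head, transcribed away from each other. RefSeq places their starts on chromosome 13 with 126 bases between them. The stretch is shown because both genes are read outward from it, in the strand of COL4A2 at chr13:110307158-110307283 (GRCh38.p14), and capitals mark a CCAAT box and a GC box (GGGCGG):
COL4A1-COL4A2: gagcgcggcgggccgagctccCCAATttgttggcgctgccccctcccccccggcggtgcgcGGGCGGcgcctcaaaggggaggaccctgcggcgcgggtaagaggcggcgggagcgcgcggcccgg
Of these bases 80.2% are G or C, against a median of 60.3% over the 126 bases before the start of 35116 promoters. On either strand and with no overlap between them, CCAAT occurs once and GGGCGG once. CCAAT is found in 21.1% of promoter windows of this length and GGGCGG in 34.6%. Neither TATAAA nor ACGTG, a form of the core of the element that hypoxia-inducible factors bind, is in this window. They are found in 5.87% and 10.9% of windows. Other forms of the core were not counted.

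COL4A1 showed an intensity of 102 in CA9 cells, against 206 in vector cells in its brightest probe set. It was 2.03-fold lower, a difference of -1.02. Its other probe set had 65.6 in CA9 cells, against 66.7 in vector cells, a difference of -0.02. Both lay above the floor on both arrays, and their differences lie further apart than the SD between probe sets. The mean over both was -0.52, short of 2-fold. Of all measurable genes 0.608% had a difference as low as that of the brightest probe set. Of the 500 measurable genes nearest in mean intensity, 10% lay below -0.54 and 10% above 0.38.

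COL4A2, its partner, had 182 in CA9 cells, against 258 in vector cells, a difference of -0.51. The second probe set had 61.4 in CA9 cells, against 67.6 in vector cells, a difference of -0.14. Both probe sets were thus lower in CA9 cells, the second by less than the SD between probe sets. A difference as low as that of the brightest probe set was found in 7.42% of all measurable genes and in 11.4% of the 500 nearest in intensity. In both genes of the pair the dimmer probe set had the smaller difference.

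COL4A5 and COL4A6 form the second head-to-head pair among the members, on the X chromosome. Their chains assemble together in the basement membranes of some epithelia and of smooth muscle, and the COL4A5 chain is also part of the filter of the kidney. RefSeq gives 2 starts for COL4A6, and 379 bases lie between the nearer one and that of COL4A5. The last 250 bases of this stretch before COL4A5 are given in its strand, at chrX:108439588-108439837 (GRCh38.p14), to set beside the first pair, with CCAAT and its reverse complement ATTGG in capitals:
COL4A5-COL4A6: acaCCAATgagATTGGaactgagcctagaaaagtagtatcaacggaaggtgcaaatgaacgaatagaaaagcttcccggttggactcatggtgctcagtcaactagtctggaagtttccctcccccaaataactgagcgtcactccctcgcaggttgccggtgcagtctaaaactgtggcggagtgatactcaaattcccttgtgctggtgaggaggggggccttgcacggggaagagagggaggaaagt
G and C make up 51.2% of it, against a median of 58.0% over windows of 250 bases. CCAAT occurs once on each strand, a motif found in 32.0% of such windows. GGGCGG, which 42.6% of such windows hold, is not in it. The same holds for TATAAA, which is in 10.7%, and for ACGTG, which is in 18.5%.

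COL4A5 had 96.3 in CA9 cells, against 182 in vector cells, both above the floor, and was 1.89-fold lower, a difference of -0.92. This probe set is of the _s_at kind, which can also detect related transcripts. Only 1.01% of measurable genes had a difference as low. Its second probe set had 22.7 in CA9 cells, against 20.3 in vector cells, both under the floor, so the lower intensity rests on 1 probe set. COL4A6 had at most 24.0 in CA9 cells, against 30.5 in vector cells over its 3 probe sets, all below the floor. The measured values of the pair therefore concern COL4A5 alone.

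**Figure D2:**
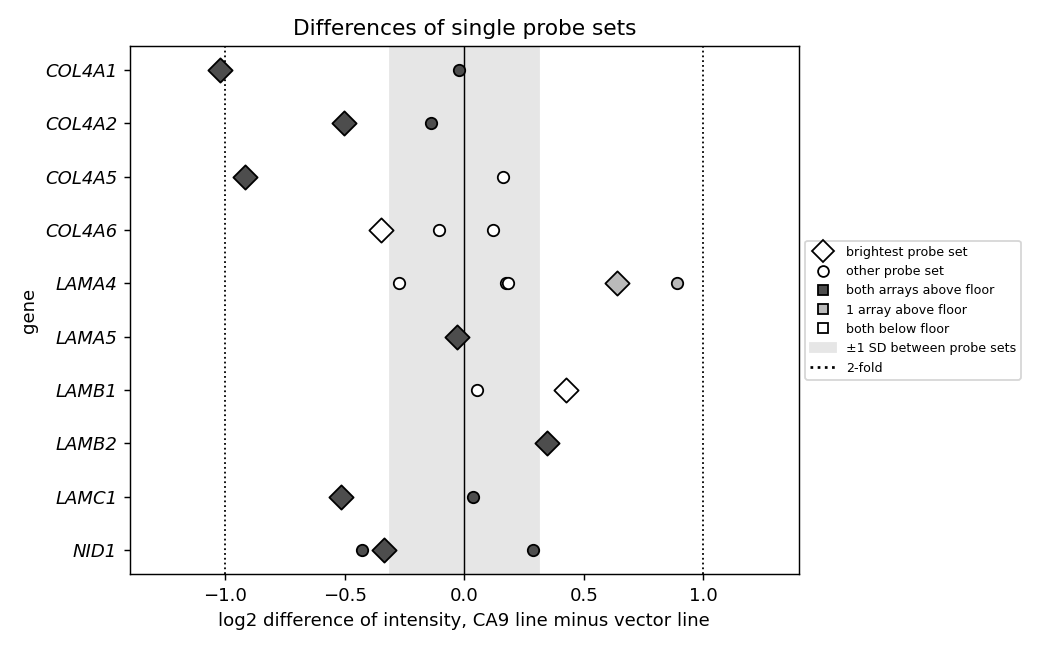
Log2 difference of intensity, CA9 cells minus vector cells, for each probe set (1 array per line); diamonds are the brightest probe set of a gene, fill shows whether 2, 1 or 0 arrays lay above the floor, and the grey band is ±0.31, the SD between probe sets. The COL4A1 diamond lies at -1.02 and its second probe set at -0.02, and the 2 LAMA4 points with 1 array above the floor lie at 0.64 and 0.89.

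Among laminin alpha chains, LAMA4, found mainly in vessel walls and mesenchymal tissue, was higher in CA9 cells. Its brightest probe set had 58.3 in CA9 cells, above the floor, against 37.5 in vector cells, below it. It was at least 1.43-fold higher against the floor, and the measured difference of 0.64 rests on a vector value under the floor. A second probe set had 61.8 in CA9 cells, against 33.3 in vector cells, and was at least 1.51-fold higher, with a measured difference of 0.89. Both crossed the floor in the same direction. Both are also of the _s_at kind, and without such probe sets LAMA4 was not measurable. The mean over all 5 probe sets was 0.32. The other 3 probe sets lay below the floor on both arrays, with differences of 0.18, 0.18 and -0.27. LAMA4 was measurable only through the CA9 array, so its place among other genes is not given.

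The 250 bases before the RefSeq start of LAMA4 are shown because LAMA4 is the member that crossed the floor between the arrays, in the strand of the gene at chr6:112254568-112254817 (GRCh38.p14). Neither CCAAT nor GGGCGG occurs in them on either strand, nor does TATAAA or ACGTG, so no base is in capitals:
LAMA4: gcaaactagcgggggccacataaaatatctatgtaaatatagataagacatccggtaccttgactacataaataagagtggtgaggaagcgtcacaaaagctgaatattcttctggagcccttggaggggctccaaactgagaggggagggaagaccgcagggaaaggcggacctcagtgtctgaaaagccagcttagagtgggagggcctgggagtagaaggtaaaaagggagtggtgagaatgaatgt
Of these bases 48.4% are G or C, and 71.3% of promoter windows of this length have as high a share or higher. Over the same length before the start, LAMC1 has 79.6%, NID1 76.4%, LAMA5 82.8%, LAMB1 70.4% and LAMB2 58.4%.

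LAMA5 encodes the alpha chain of the main laminin of adult epithelia. It had 151 in CA9 cells, against 155 in vector cells, a difference of -0.03. This is within the SD between probe sets, and the sign turned to 0.06 under quantile normalization and to 0.05 after removal of the intensity trend. No second probe set names LAMA5 alone, and one that the annotation also pairs with the antisense gene LAMA5-AS1 had a difference of 0.86.

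The beta chains LAMB1 and LAMB2 can take each other's place in a laminin. LAMB2, typical of the neuromuscular junction and the kidney filter, had 124 in CA9 cells, against 97.4 in vector cells, a difference of 0.34 in 1 probe set of the _s_at kind. This was just past the SD between probe sets. A difference as high was found in 14.7% of all measurable genes and in 18% of the 500 nearest in intensity. LAMB1, the more widespread beta chain, had 25.9 in CA9 cells, against 19.3 in vector cells in its brighter probe set. The other had 11.4 in CA9 cells, against 11.0 in vector cells. All lay below the floor, so no direction is read for LAMB1.

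LAMC1 encodes the gamma chain that most laminins share. Its brightest probe set had 413 in CA9 cells, against 590.2 in vector cells, a difference of -0.52. Its other probe set had 352 in CA9 cells, against 343 in vector cells, a difference of 0.04. Both lay above the floor on both arrays, and the intensity was lower in CA9 cells in 1 of them. A difference as low as -0.52 was found in 7.14% of all measurable genes and in 4.40% of the 500 nearest in intensity. The mean of the 2 probe sets was -0.24.

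NID1 encodes the nidogen that links the gamma chain of laminin to collagen IV. Its brightest probe set had 2283 in CA9 cells, against 2879 in vector cells, a difference of -0.34. The second had 744 in CA9 cells, against 1001 in vector cells, a difference of -0.43. The third had 124 in CA9 cells, against 101 in vector cells, a difference of 0.29, which is opposite in sign. The 2 brighter probe sets were thus lower in CA9 cells by more than the SD between probe sets, but by less than 2-fold. At the intensity of NID1 the spread across genes was narrower than at that of COL4A1. Of the 500 nearest genes 10% lay below -0.30 and 10% above 0.22. A difference as low as that of NID1 was found in 6.60% of these 500, against 16.8% of all measurable genes.

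**Figure D3:**
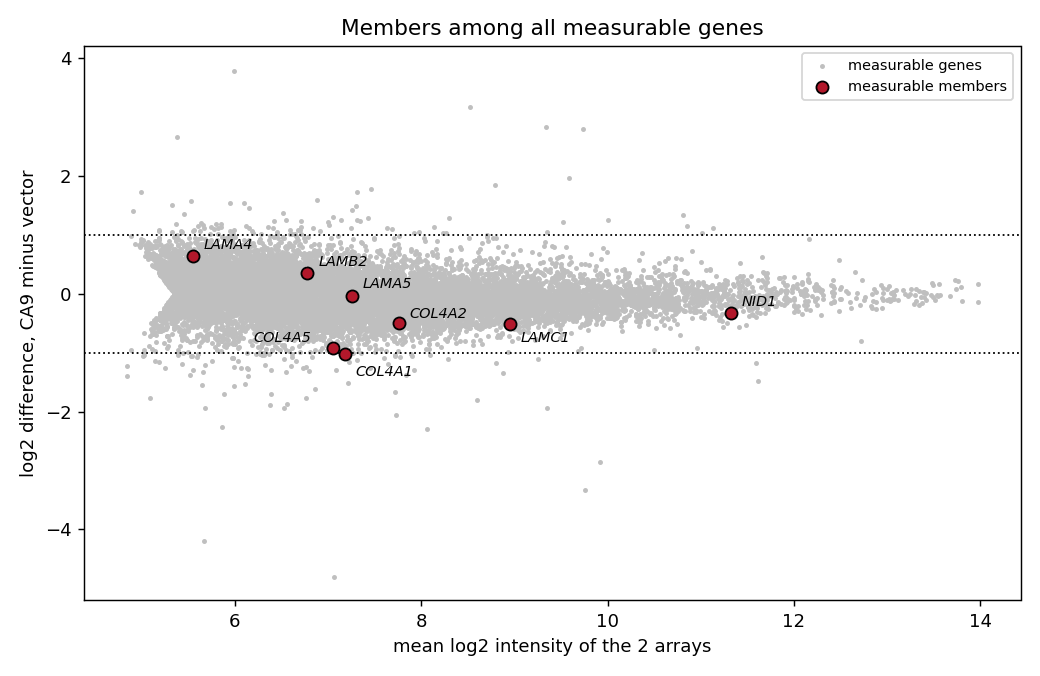
Log2 difference, CA9 cells minus vector cells, against the mean log2 intensity of both arrays for 13823 measurable genes (grey) and the 8 measurable members (red), with dotted lines at 2-fold. COL4A1 at -1.02 and COL4A5 at -0.92 lie at the lower edge of the cloud, and the other members lie inside it.

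Of the 23 probe sets 14 lay above the floor on at least 1 array. Of these 9 were below 0 and 5 above it, with a median of -0.09, against -0.03 and 53.0% below 0 over all 24174 single-gene probe sets above the floor. Of the 14, 1 differed by 2-fold or more, against 1.53% of all. In COL4A1, COL4A2 and LAMC1, each with 2 probe sets above the floor, the brighter one had the more negative difference. The median over probe sets was nearer to 0 than the median over genes, -0.42, for which the brightest probe set of each gene was taken.

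No gene was called in any of 5 lists of other genes around the basement membrane, which is near the 1.35% of all measurable genes called and says little about these genes. They hold 88 genes, of which 83 were analysed here and 63 were measurable, 38 of them above 0 and 23 below, with a median of 0.08. The other 2, COL5A1 and COL12A1, had equal values on both arrays, as had 1425 probe sets of the whole array. MATN2 and PLAU entered these counts and the medians of their lists only through the CA9 array, where they are high. ITGA2 did so only through the vector array, where it is high. The lists were written, and the members chosen, with earlier results of these data known. Medians of members and lists therefore only describe these groups. Of 14 other basement membrane components 6 were measurable, 5 above 0 and 1 below, with a median of 0.30. AGRN, a heparan sulfate proteoglycan that binds laminin, had 198 in CA9 cells, against 139 in vector cells, a difference of 0.51, and its other probe sets above the floor had 0.87, 0.12 and 0.07. HSPG2, which encodes perlecan, had 108 in CA9 cells, against 82.1 in vector cells, a difference of 0.39, and 0.42 in a second probe set. COL4A3, LAMA1, LAMA2, LAMB4, NID2 and COL15A1 lay below the floor on both arrays.

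Of 18 receptors of laminin and collagen IV 14 were measurable, 4 above 0 and 10 below, with a median of -0.14. ITGAV, an integrin alpha subunit with many matrix ligands, had 345 in CA9 cells, against 687 in vector cells, a difference of -0.997 that fell just short of 2-fold, in its single probe set. It passed 2-fold, at -1.06, when the medians of the arrays were set equal. BCAM, a receptor of laminins with the LAMA5 chain, had 110.3 in CA9 cells, against 73.4 in vector cells, a difference of 0.59, with 0.63 in a second probe set.

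Of 22 genes for collagen folding, modification, export and cross-linking 20 were measurable, 15 above 0 and 5 below, with a median of 0.13. KLHL12, a ubiquitin ligase adaptor that enlarges the vesicles in which collagen leaves the endoplasmic reticulum, had 196 in CA9 cells, against 292 in vector cells. The difference was -0.57, and -0.05 in a second probe set. P4HA1, a prolyl hydroxylase subunit that stabilises the triple helix and is a target of hypoxia-inducible factors, had 231 in CA9 cells, against 302 in vector cells, a difference of -0.39.

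Of 22 other matrix collagens and glycoproteins 14 were measurable, 9 above 0 and 3 below, with a median of 0.12. MATN2, among the 9, lay above the floor only on the CA9 array. COL6A1 had 139 in CA9 cells, against 79.7 in vector cells, a difference of 0.80. Its other probe sets above the floor had 0.74, 0.71, 0.71 and 0.16. COL6A2, its partner in type VI collagen, had a difference of 0.48, at 109.6 in CA9 cells against 78.5 in vector cells. The second probe set of COL6A2 had 0.23, within the SD between probe sets. Of 12 proteases and inhibitors that act on basement membranes 9 were measurable, 5 above 0 and 4 below, with a median of 0.04. PLAU, the urokinase gene, had 51.6 in CA9 cells, against 39.2 in vector cells, below the floor, and was at least 1.26-fold higher. TIMP3, a matrix-bound inhibitor, had 59.3 in CA9 cells, against 75.3 in vector cells, a difference of -0.34, but 0.29 in a second probe set. TIMP2, chosen after its values were seen, had a difference of -0.33 in its brightest probe set. Its other probe sets above the floor had 0.07 and -1.13, the latter past 2-fold, though the gene was not called.

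**Figure D4:**
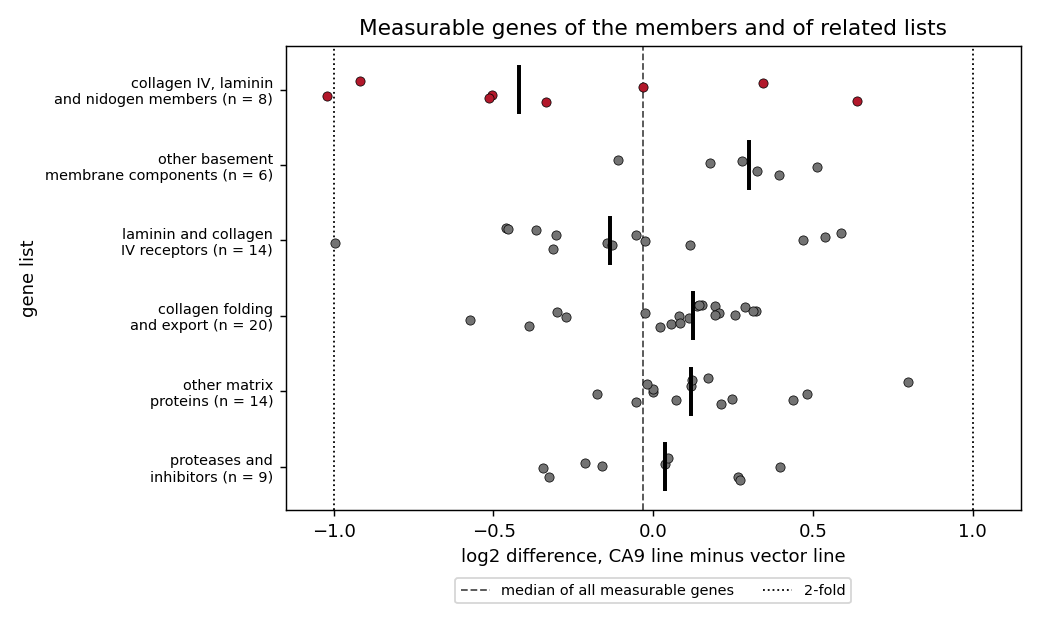
Log2 difference, CA9 cells minus vector cells, of each measurable gene in 6 groups, with the median of each as a black bar, the median of all measurable genes (-0.03) dashed and 2-fold dotted. The members have a median of -0.42 and the other basement membrane components one of 0.30, and ITGAV at -0.997 lies at the 2-fold line. Members and lists were chosen with earlier results of these data known, so the medians only describe these groups.

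The differences of the members were recomputed under 8 other settings. COL4A1 lay between -1.08 and -0.52, COL4A2 between -0.57 and -0.32 and LAMC1 between -0.58 and -0.24, and NID1 lay between -0.40 and -0.16, each in 8 of 8 settings. COL4A5 lay between -0.98 and -0.38 in the 7 settings in which it was measurable. LAMB2 lay between 0.28 and 0.38 in 7 settings and LAMA4 between 0.47 and 0.64 in 5. These members kept their sign in every setting that measured them. A change of floor or a pseudocount, however, cannot turn the sign of a probe set. LAMA4 was not measurable with averaged probe sets, a higher floor or no _x_at or _s_at probe sets. At the floor used here LAMA4 was measured only through the CA9 array, where it is high. Its kept sign therefore does not show that its difference is stable. COL4A1 passed 2-fold in 4 of the 8. Among these, a higher floor, no floor and no _x_at or _s_at probe sets could not change its value, -1.02. Only equal medians moved COL4A1 and kept it past 2-fold.

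**Figure D5:**
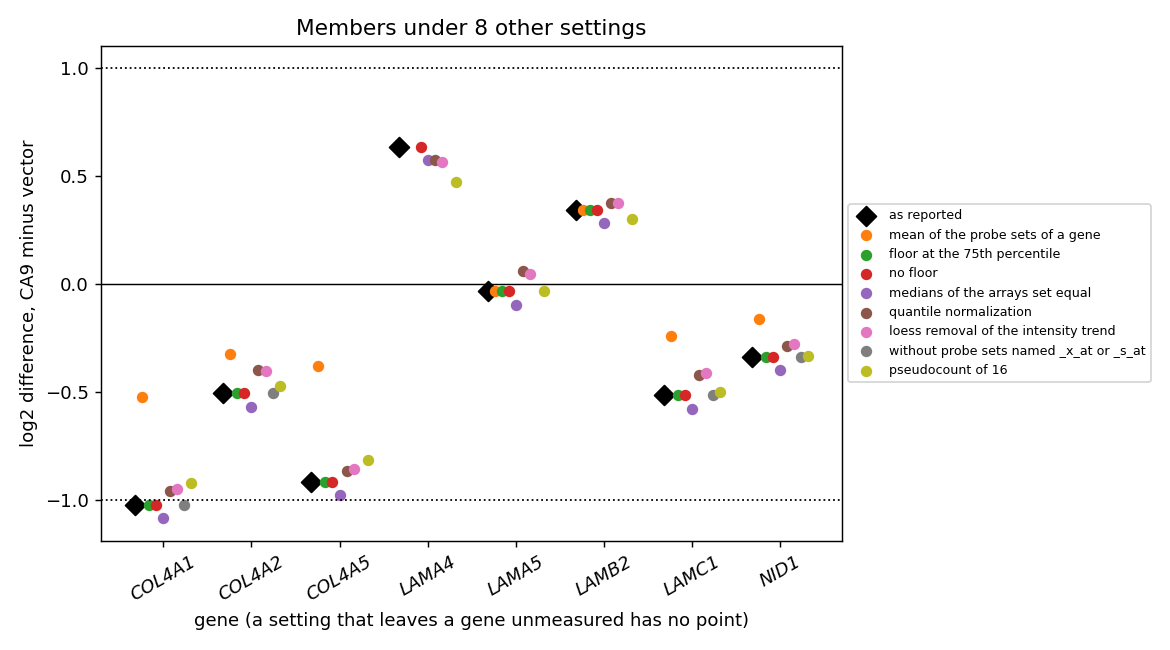
Log2 difference, CA9 cells minus vector cells, of each member as reported (black diamonds) and under 8 other settings (coloured circles), with dotted lines at 2-fold. Averaging the probe sets moves COL4A1 to -0.52 and COL4A5 to -0.38, and LAMA5 lies on both sides of 0.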

How the data were processed

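Per the labels' protocols, RNA was taken on the fourth day after seeding, and biotinylated cRNA was hybridised to Affymetrix arrays. The deposited table holds 1 intensity per probe set and array for 54675 probe sets. Per the submitters' processing notes the authors obtained these intensities with RMA; neither version nor settings are given in the sources used here. Although RMA output is usually log2, these values run from 6.79 to 17091 on the CA9 array, so they were read as linear and put on log2 without a pseudocount. The number of arrays limits the precision.

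Genes were named from the platform annotation. Symbols were updated for 41043 single-gene probe sets whose Entrez identifier matched RefSeq (GRCh38.p14), and 1801 probe sets with several genes were left out. Each gene was read from its brightest probe set, by mean log2 intensity, among those with a single gene. The members, lists and rules were chosen with earlier results of these data known. Named genes were all members and, of each list, the called genes or the 2 farthest from 0. With 2 arrays, no likeness of patterns between genes could be measured. Other settings were averaged probe sets, a floor at the 75th percentile, no floor, equal medians, quantile normalization, loess, no _x_at or _s_at probe sets and a pseudocount of 16. All 10 members matched the RefSeq promoter table. Python 3.11.15, numpy 2.4.6, pandas 2.3.3, statsmodels 0.14.6 and matplotlib 3.10.9 were used. The code of the calling rule was run on simulated data. The noise there came from the SD between probe sets alone, with no variation between arrays or lines. That run therefore cannot show how reliable the calls between these 2 lines are.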

Additional observations from a re-analysis of the deposited data

Results flagged for a closer look

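A probe set left out of the comparison, because it names 2 genes, had more signal in CA9 cells than in vector cells. It is paired by the annotation with both LAMA5 and its antisense gene LAMA5-AS1, and had an intensity of 189 in CA9 cells, against 104 in vector cells, a log2 difference of 0.86. The probe set of LAMA5-AS1 alone, of the _x_at kind and part of the comparison over all genes, had 88.3 in CA9 cells, against 55.2 in vector cells, a difference of 0.68. The probe set of LAMA5 alone had a difference of -0.03.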

How the results depend on the processing

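Over 8 other settings, 80 of 90 recomputed values or counts stayed close to those reported, that is within the SD between probe sets or within 1.5 times a count. Some of the 80 could not move, such as the difference of a member under another floor. With averaged probe sets COL4A1 was -0.52 and COL4A5 -0.38, no member was called, and 92 genes were called in place of 186. No member was called after quantile normalization (0), loess (0) or a pseudocount of 16 (0), where COL4A1 was -0.96, -0.95 and -0.92. The calls over all genes were 93 with the pseudocount, which shrinks the differences of dim genes, and 122 with a higher floor (75th percentile), which left 8516 measurable genes. With equal medians 1 gene of the related lists, ITGAV, was called. The median of the members ran from -0.51 to -0.24. Without _x_at and _s_at probe sets, COL4A1, COL4A2, LAMC1 and NID1 remained measurable, all below 0. No paired analysis was possible because each line has 1 array. The cause of these shifts was not tested.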

Other observations

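The laminin receptor genes ITGB4, ITGA6 and ITGB1, whose probe sets above the floor agreed in sign, were chosen after their values were seen. ITGB4, the integrin beta subunit of hemidesmosomes, had 97.1 in CA9 cells, against 70.2 in vector cells, a log2 difference of 0.47, and its other probe sets had 0.57, 0.54, 0.46 and 0.35. ITGA6, the alpha subunit that pairs with it or with ITGB1, had 169 in CA9 cells, against 233 in vector cells, a difference of -0.46, with -0.38 in a second probe set. ITGB1 had 2793 in CA9 cells, against 3475 in vector cells, a difference of -0.31, with -0.21 and -0.17 in its other probe sets above the floor. None of the 3 reached 2-fold. Other receptors had probe sets above the floor that disagreed in sign, among them ITGA7 with -0.31 and 0.48, ITGB5 with -0.37 and 0.37, SDC1 with -0.45 and 0.10 and ITGB3 with -0.13 and 0.20. LAMB2P1, a transcribed pseudogene of LAMB2, had 51.0 in CA9 cells, against 45.4 in vector cells.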
